A study of Homo sapiens with 6 samples.

Results

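The genes described here encode 8 transcription factors of the ETS family, which share a DNA-binding domain that reads a GGAA core. They are ETV1, ETV4 and ETV5, which form the PEA3 subfamily, with ETS1, ETS2, ETV6, ELK1 and ELK3. They were chosen by symbol, and all 8 had a row among the 20503 genes of the deposited count table. Poly(A)-selected RNA was sequenced in 3 libraries of T47D-TR and 3 of T47D. T47D-TR is a tamoxifen-resistant subline of T47D whose medium held 1 µM of the active tamoxifen metabolite 4-hydroxytamoxifen. T47D is the parental line, which the labels call a human breast cancer line positive for the oestrogen receptor, and no drug is given for it. The medium of both was DMEM, supplemented with 10% serum. Resistance and the presence of the drug cannot be told apart in this design, the labels do not say whether T47D-TR is 1 clone or a pool, and nothing says that the 3 libraries of a culture came from separate dishes. The p-values therefore measure the spread between these libraries, which may be technical.

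ETS factors are among the best known nuclear endpoints of receptor tyrosine kinase and ERK signalling. ERK phosphorylates the ELK factors, which sit with the serum response factor SRF on immediate-early genes such as EGR1 and FOS, and it phosphorylates ETS1 and ETS2. The PEA3 genes are held down at the transcript level by the repressor CIC, which ERK signalling inactivates, and their proteins are removed through the ubiquitin ligase COP1. In mammary tissue PEA3 factors act in ductal branching, and in breast tumours they are known as regulators of proteases and other invasion genes. ETV6 is a repressor, and ELK3 represses its targets until ERK signalling phosphorylates it.

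The libraries held 17199315 to 19867230 counts in T47D-TR and 18315735 to 19305594 in T47D. Levels are given as CPM, counts scaled to library size with TMM factors, and 3 counts equal 0.153 to 0.178 CPM in a library. ESR1, the oestrogen receptor alpha gene that defines the labelled cell type, had 2, 4 and 3 counts in T47D-TR and 3, 0 and 2 in T47D, so it was at the limit of detection in both. Of 10 luminal markers 9 were analysed and 8 tested, of which 6 rose and 2 fell, beside 32.5% higher and 30.5% lower over all tested genes. The summed level of these markers was 2578 to 2971 CPM in T47D-TR and 2105 to 2187 CPM in T47D. KRT19 had the largest rise (log2 fold change 2.01) and the epithelial adhesion gene EPCAM the largest fall (-1.39). The luminal keratin gene KRT8 stood at 1580 ± 120 CPM in T47D-TR and 1338 ± 26.0 CPM in T47D (SD, n = 3 each). KRT18, another luminal keratin gene, had 928 ± 90.2 CPM in T47D-TR and 683 ± 18.7 CPM in T47D. FOXA1, also among the luminal markers that rose, had 10.7 ± 1.05 CPM in T47D-TR and 5.64 ± 0.500 CPM in T47D. GATA3, a luminal lineage factor gene, had 0.625 ± 0.0774 and 1.23 ± 0.140 CPM in T47D-TR and T47D (called lower by edgeR, adjusted p = 0.00926; not called by DESeq2, adjusted p = 0.0607). Pairs of libraries were compared by the chi-square of their counts, divided by the number of genes. It was 8.36 and 9.58 for the pairs with T47D-TR replicate 3, 2.79 for T47D-TR replicates 1 and 2, and 1.83 to 2.24 for the T47D pairs, so T47D-TR replicate 3 stood apart. Of the fibroblast markers too low to test, COL1A2 had 0, 0 and 22 counts in T47D-TR, COL3A1 3, 1 and 37 and DCN 4, 0 and 19, the high value always in replicate 3, against at most 1 count in a T47D library. Their part in the values of that library was not tested.

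The coding sequences of the PEA3 genes are shown first, because the similarity of these genes bears on how far their read counts can be told apart. The stretches are 150 coding bases, spliced from GENCODE release 29 on GRCh38, all from the minus strand. They were chosen by identity and not by the limits of the ETS domain. Among gapless windows of that length along a fixed alignment of the 3 genes, these share the most bases. Their identity is therefore not typical of the whole coding sequences. They lie at chr17:43528684-43529224 for ETV4, chr3:186048801-186052119 for ETV5 and chr7:13896028-13900827 for ETV1, and capitals mark the bases that all 3 genes share.
ETV4: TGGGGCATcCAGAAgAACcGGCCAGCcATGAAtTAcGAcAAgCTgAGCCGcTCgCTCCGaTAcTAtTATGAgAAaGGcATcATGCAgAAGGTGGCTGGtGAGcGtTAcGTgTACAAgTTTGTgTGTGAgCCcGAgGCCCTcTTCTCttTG
ETV5: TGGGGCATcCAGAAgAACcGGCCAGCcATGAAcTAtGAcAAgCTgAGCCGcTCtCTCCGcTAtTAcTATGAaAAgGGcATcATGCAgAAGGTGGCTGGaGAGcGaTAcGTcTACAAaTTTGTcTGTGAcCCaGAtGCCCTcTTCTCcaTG
ETV1: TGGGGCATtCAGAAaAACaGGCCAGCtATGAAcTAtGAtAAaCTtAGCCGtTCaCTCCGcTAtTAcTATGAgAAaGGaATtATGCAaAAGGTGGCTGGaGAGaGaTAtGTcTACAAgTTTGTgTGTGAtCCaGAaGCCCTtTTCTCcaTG
The 3 genes were identical at 118 of 150 bases (78.7%), ETV4 and ETV5 at 88.0%, ETV1 and ETV5 at 86.0% and ETV1 and ETV4 at 81.3%. Over the whole coding sequences, the longest run without a difference was 33 bases between ETV4 and ETV5, 18 between ETV1 and ETV5 and 17 between ETV1 and ETV4. ETS1 and ETS2 shared at most 19 bases and ELK1 and ELK3 at most 18. No source used here gives the read length.

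ETV5 and ETV4 rose most among the members. ETV5 (chromosome 3, 186046308 to 186110318) had 2384, 2672 and 2170 counts in T47D-TR and 755, 842 and 735 in T47D. On the CPM scale these were 124, 136 and 129 in T47D-TR and 40.7, 43.1 and 39.4 in T47D. The lowest T47D-TR library lay far above the highest T47D library, and the fold was 3.15 (log2 fold change 1.66 ± 0.06 SE, edgeR adjusted p = 2.04e-10). ETV4 (chromosome 17, 43527844 to 43579620) had 1567, 1745 and 1382 counts in T47D-TR and 636, 694 and 654 in T47D, or 81.2, 89.0 and 81.8 CPM in T47D-TR and 34.2, 35.5 and 35.0 CPM in T47D. In bulk RNA, more cells with a transcript and more transcript per cell cannot be told apart. All T47D-TR libraries were again above all T47D libraries, with a fold of 2.41 (log2 fold change 1.27 ± 0.04 SE, edgeR adjusted p = 2.01e-09). ETV5 lay at the 95.4th and ETV4 at the 92.6th percentile of the log2 fold changes of all 15961 tested genes.

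ETV1, the third PEA3 gene (chromosome 7, 13891228 to 13991425), was not detectable above the floor of 3 counts in any library. It had 1, 1 and 0 counts in T47D-TR and 0, 0 and 2 in T47D, so it was removed by the filter on low counts and no fold is given. Within each library the ratio of ETV5 to ETV4 counts, which no scaling between libraries can change, was 1.52, 1.53 and 1.57 in T47D-TR and 1.19, 1.21 and 1.12 in T47D. The groups did not overlap, and the ratio rose by 0.39 on the log2 scale (2-sided exact permutation p = 0.10, the smallest that 3 against 3 libraries can give).

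**Figure D1:**
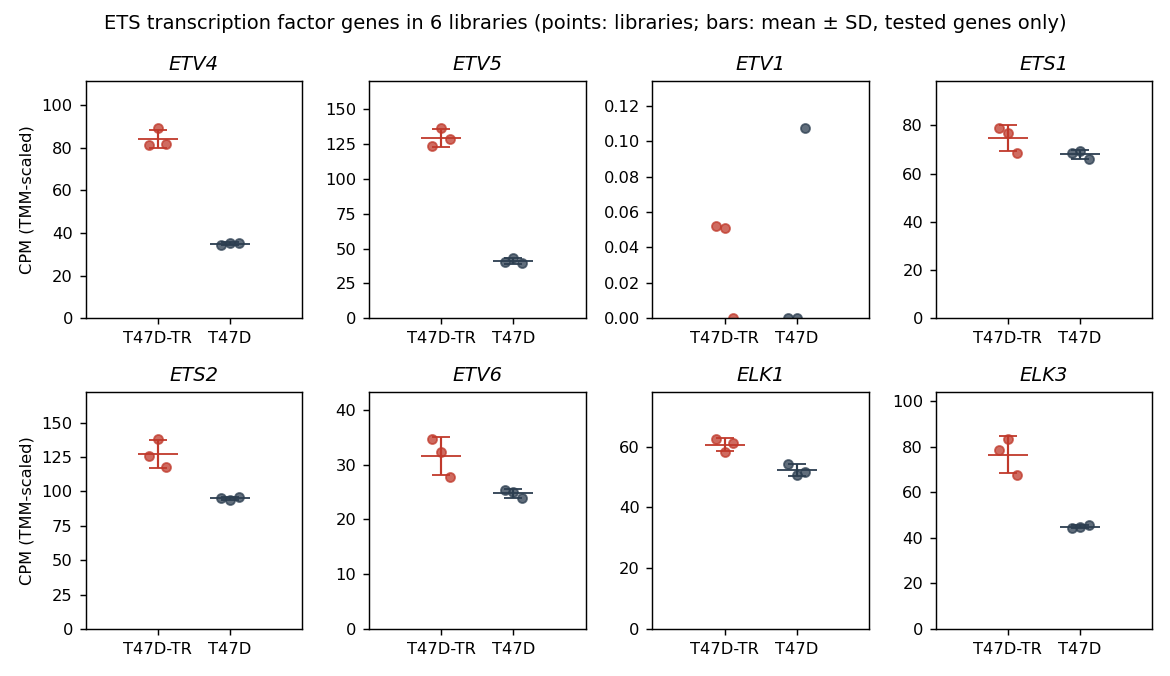
CPM of the 8 ETS genes in the T47D-TR (left, red) and T47D (right, dark) libraries. Points are libraries and bars the mean ± SD over 3 libraries, drawn for the tested genes only; ETV5 and ETV4 show the widest gaps (129 and 41.0 CPM, 84.0 and 34.9 CPM in T47D-TR and T47D), ETS1 overlaps, and ETV1 stays at or below 0.107 CPM.

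Of the ERK-regulated pair ETS1 and ETS2, only ETS2 was called. ETS2 (chromosome 21, 38805307 to 38824955) had 2426, 2707 and 1989 counts in T47D-TR and 1775, 1827 and 1788 in T47D. The CPM were 126, 138 and 118 in T47D-TR and 95.6, 93.4 and 95.8 in T47D, so the groups did not overlap, and the rise was 1.34-fold (log2 fold change 0.42 ± 0.07 SE, edgeR adjusted p = 3.98e-05). ETS1 (chromosome 11, 128458761 to 128587558), a factor also known from blood and endothelial cells, had 78.7, 76.9 and 68.8 CPM in T47D-TR and 68.4, 69.6 and 65.9 CPM in T47D. T47D-TR replicate 3 fell inside the T47D range, and the log2 fold change of 0.14 ± 0.06 SE was not called (edgeR adjusted p = 0.0565). Without T47D-TR replicate 3 it was called, at 0.20 (edgeR adjusted p = 0.000799). The within-library ratio of ETS2 to ETS1 counts was 1.60, 1.80 and 1.71 in T47D-TR and 1.40, 1.34 and 1.45 in T47D (change 0.28 on the log2 scale, 2-sided exact permutation p = 0.10, again the smallest possible). ETV6, the repressor (chromosome 12, 11649854 to 11895402), had 34.7, 32.3 and 27.8 CPM in T47D-TR and 25.3, 25.1 and 23.8 CPM in T47D. It rose 1.28-fold (log2 fold change 0.35 ± 0.10 SE, edgeR adjusted p = 0.00246), with T47D-TR replicate 3 the lowest of its group.

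Of the SRF partners, ELK3 rose more than ELK1. ELK3 (chromosome 12, 96194382 to 96269835) had 1515, 1632 and 1139 counts in T47D-TR and 820, 874 and 847 in T47D. Its CPM were 78.5, 83.2 and 67.4 in T47D-TR and 44.1, 44.7 and 45.4 in T47D, with no overlap and a fold of 1.71 (log2 fold change 0.77 ± 0.09 SE, edgeR adjusted p = 1.30e-06). ELK1, the classic ERK substrate (X chromosome, 47635521 to 47650604), stood at 62.5, 58.4 and 61.2 CPM in T47D-TR and 54.4, 50.7 and 51.8 CPM in T47D. The groups were close but apart, and the rise was 1.16-fold (log2 fold change 0.21 ± 0.04 SE, edgeR adjusted p = 0.00428). The ratio of ELK3 to ELK1 counts was 1.26, 1.43 and 1.10 in T47D-TR and 0.811, 0.881 and 0.876 in T47D, a change of 0.55 on the log2 scale (2-sided exact permutation p = 0.10, the smallest possible). Replicate 3 gave the lowest of the T47D-TR ratios.

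In all, 6 of the 7 tested members rose, none fell and 1 was not called. Over all tested genes, edgeR called 32.5% higher and 30.5% lower, or 63.0% in either direction, so a call by itself is common here. The libraries of the groups did not overlap for the same 6 members, against 68.3% of tested genes. The 7 tested members had at least 445 counts in every library, so none passed the filter through 1 group only. Their median log2 fold change was 0.42, beside 0.00 over all tested genes. In the authors' deposited table the same 6 members have a false discovery rate under 0.05, with a log2 fold change of 1.65 for ETV5 and 1.26 for ETV4, and ETS1 has a false discovery rate of 0.143. Parts of the exons overlap other genes, which touches few bases. ETV4 shares 54 exon bases (1.72%) with DHX8 on the other strand, and ETV5 shares 164 (3.57%) with DGKG on the same strand. DHX8 and DGKG were both called lower in T47D-TR, with log2 fold changes of -0.21 and -0.41 (edgeR adjusted p = 0.00199 and 0.0160). The call of DGKG ended without T47D-TR replicate 1 (edgeR adjusted p = 0.0702). ELK3 shares 209 (4.59%) with an antisense RNA gene that was not analysed here. No source used here gives the strand setting of the counting, so reads there cannot be told apart.

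Set against each other per kilobase of exon, the members changed order. In T47D-TR the levels were 28.2 ± 1.39 CPM per kb for ETV5, 27.7 ± 2.22 for ETS2, 26.8 ± 1.37 for ETV4, 20.9 ± 0.719 for ELK1, 16.8 ± 1.78 for ELK3, 12.6 ± 0.895 for ETS1 and 4.94 ± 0.549 for ETV6 (SD, n = 3 each). In T47D they were 20.7 ± 0.284 CPM per kb for ETS2, 18.0 ± 0.655 for ELK1, 11.4 ± 0.317 for ETS1, 11.1 ± 0.202 for ETV4, 9.82 ± 0.136 for ELK3, 8.93 ± 0.407 for ETV5 and 3.87 ± 0.124 for ETV6. The first 3 of T47D-TR did not differ beyond their spread, nor did ETS1 and ETV4 in T47D, while the other neighbours in each order had no overlapping libraries. ETV5 was thus the 6th of the members in T47D and among the first 3 in T47D-TR. These levels use the union of annotated coding-transcript exons as length, which overstates the length where long isoforms are not used.

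The rest of the ETS family did not move as one. Of 20 other family genes 12 were analysed and 9 passed the filter, of which 4 rose, 3 fell and 2 were not called (median log2 fold change 0.12). Over all tested genes 32.5% were called higher and 30.5% lower, so calls on both sides are common here. The epithelial factor gene ELF3 rose to 33.2 ± 3.35 CPM in T47D-TR, against 14.5 ± 0.947 CPM in T47D (log2 fold change 1.19 ± 0.10 SE, edgeR adjusted p = 1.96e-07). Its relative EHF had 20, 45 and 59 counts in T47D-TR and 5, 7 and 9 in T47D, which is low but apart (log2 fold change 2.58 ± 0.52 SE, edgeR adjusted p = 0.000357). ELF2 rose by a log2 fold change of 0.53 (edgeR adjusted p = 2.90e-05). ELF4, at 0.14, was called (edgeR adjusted p = 0.0383), but 7 of 14 alternative settings ended that call, with adjusted p of 0.0234 to 0.184 over all of them.

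ERF, an ETS repressor that ERK expels from the nucleus, fell to 59.0 ± 1.92 CPM in T47D-TR, against 75.4 ± 2.15 CPM in T47D (log2 fold change -0.35 ± 0.04 SE, edgeR adjusted p = 6.27e-05). GABPA, which serves housekeeping promoters, stood at 56.7 ± 1.70 CPM in T47D-TR and 71.6 ± 0.837 CPM in T47D (log2 fold change -0.34, edgeR adjusted p = 7.56e-05), and ELF1 had a log2 fold change of -0.22 (edgeR adjusted p = 0.00904). ETV3 (0.12, edgeR adjusted p = 0.160) and ELK4 (-0.08, edgeR adjusted p = 0.342) were not called. ETV2, SPI1 and SPIB had at most 11 counts in a library and were not tested, and ERG, FLI1, FEV, ETV3L, ETV7, ELF5, SPIC and SPDEF were not analysed here.

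**Figure D2:**
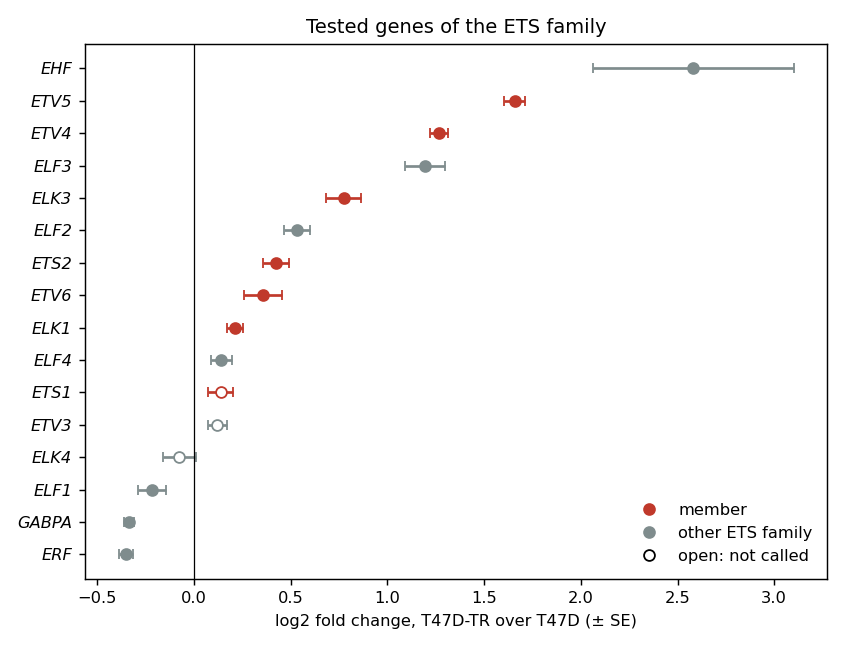
Log2 fold change, T47D-TR over T47D, with its SE for the 16 tested genes of the ETS family; members are red, the others grey, and open points were not called. ETV5 (1.66) and ETV4 (1.27) are the highest members, while ERF (-0.35) and GABPA (-0.34) lie lowest.

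As a share of the summed CPM per kb of the 20 analysed family genes, ETV1, ETV4 and ETV5 together made up 23.3%, 24.8% and 24.4% in the T47D-TR libraries and 11.1%, 11.7% and 11.2% in the T47D libraries. The difference was 12.8 percentage points, without overlap (2-sided exact permutation p = 0.10, the smallest possible). Without length scaling the shares averaged 21.2 ± 0.736% in T47D-TR and 9.69 ± 0.292% in T47D (SD, n = 3 each). Per kb, ETV5 alone took 12.4 ± 0.431% in T47D-TR and 5.05 ± 0.232% in T47D, and ERF took 9.08 ± 0.447% in T47D-TR and 14.9 ± 0.446% in T47D. The share of ETS2 was 12.1 ± 0.633% in T47D-TR and 11.7 ± 0.156% in T47D, a difference within the spread. Shares are bound to sum to 100, so a rise of some genes lowers the share of the others. The summed level itself was 227, 235 and 222 CPM per kb in T47D-TR and 178, 176 and 176 in T47D.

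**Figure D3:**
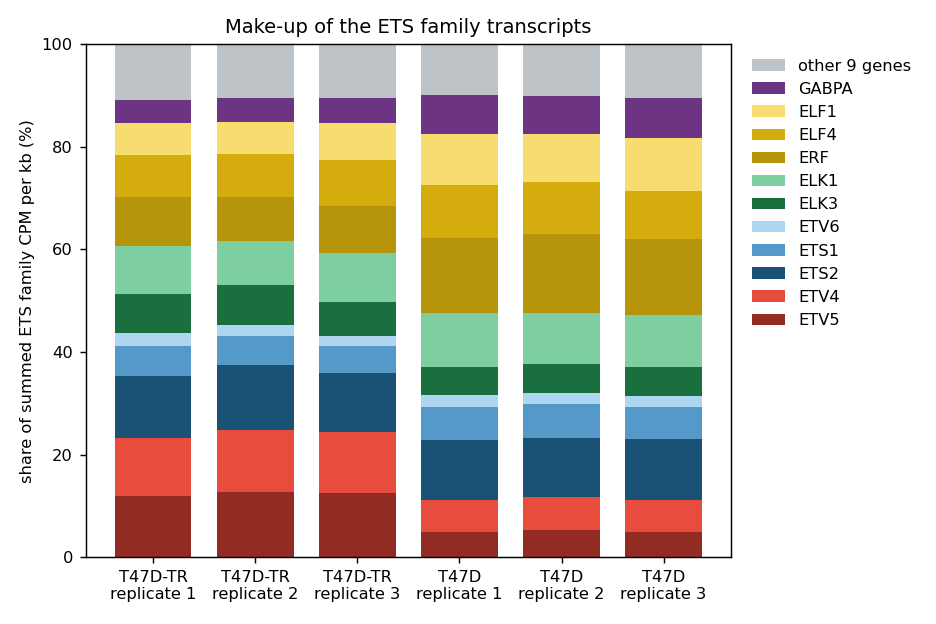
Share of each ETS family gene in the summed CPM per kb of the 20 analysed family genes, by library, T47D-TR left and T47D right. The red segments, ETV5 and ETV4, add to 23.3% to 24.8% in T47D-TR and 11.1% to 11.7% in T47D, and the ERF segment is narrower in T47D-TR.

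Genes of PEA3 repression and of the COP1 ligase, listed with the COP1 partners TRIB1 and TRIB2, moved in both directions. Of 10 genes tested 4 rose, 4 fell and 2 were not called (median log2 fold change -0.14). Again, 32.5% of all tested genes were called higher and 30.5% lower, so such a mixture is not particular to these genes. CIC, the repressor of the PEA3 genes, had 59.3, 60.8 and 57.6 CPM in T47D-TR and 62.7, 66.4 and 64.1 CPM in T47D. The groups lay apart, but the log2 fold change of -0.12 ± 0.03 SE was not called (edgeR adjusted p = 0.0549); it was called when counts were scaled by library size alone (-0.16, edgeR adjusted p = 0.0174) and by limma voom after quantile normalization (-0.15, adjusted p = 0.0241). Over the alternatives its adjusted p ran between 0.0174 and 0.185. Its partner ATXN1 rose to 38.8 ± 1.66 CPM in T47D-TR, against 18.6 ± 0.520 CPM in T47D (log2 fold change 1.06 ± 0.04 SE, edgeR adjusted p = 4.57e-08). ATXN1L, the other partner, had a log2 fold change of -0.17 (edgeR adjusted p = 0.0311), a call that ended without T47D-TR replicate 1 or without T47D replicate 1 or 2 (edgeR adjusted p = 0.129, 0.109 and 0.105).

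COP1, listed under its older symbol RFWD2, is the ligase that marks PEA3 proteins for breakdown and rose by a log2 fold change of 0.28 ± 0.04 SE (edgeR adjusted p = 0.00230). The ligase scaffold genes fell, CUL4A to 215 ± 6.35 CPM in T47D-TR, against 309 ± 4.29 CPM in T47D (log2 fold change -0.52 ± 0.03 SE, edgeR adjusted p = 3.00e-07). DDB1 fell by 0.33 and CUL4B by 0.32 on the log2 scale (edgeR adjusted p = 5.67e-06 and 0.000126), and DET1 (-0.30) was not called (edgeR adjusted p = 0.153). TRIB1 and TRIB2, pseudokinases that recruit COP1 to its substrates, rose. TRIB2 had 319, 343 and 262 counts in T47D-TR and 45, 57 and 55 in T47D (log2 fold change 2.58 ± 0.10 SE, edgeR adjusted p = 2.92e-09), and TRIB1 had a log2 fold change of 0.98 (edgeR adjusted p = 2.05e-07).

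Most genes that CIC represses or ERK induces beside the PEA3 genes rose with them. Of 15 tested genes of this list 13 rose, 1 fell and 1 was not called (median log2 fold change 1.51). Beside them, 32.5% of all tested genes were called higher and 30.5% lower. This list and those that follow were chosen with earlier results of these data known, so their counts are no independent support. DUSP6, an ERK phosphatase gene, had 968, 1336 and 888 counts in T47D-TR and 37, 46 and 36 in T47D (log2 fold change 4.76 ± 0.16 SE, edgeR adjusted p = 1.17e-10). SPRY4, a feedback inhibitor gene, had 539, 613 and 317 counts in T47D-TR and 45, 50 and 50 in T47D (log2 fold change 3.35 ± 0.23 SE, edgeR adjusted p = 1.96e-08). The cyclin D1 gene CCND1 went the other way, at 163 ± 9.35 CPM in T47D-TR and 248 ± 7.75 CPM in T47D (log2 fold change -0.61 ± 0.06 SE, edgeR adjusted p = 4.49e-07).

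Among immediate-early genes with sites for ELK factors and SRF, 10 of 13 tested genes rose, 1 fell and 2 were not called (median log2 fold change 1.17). Here too, the shares over all tested genes were 32.5% called higher and 30.5% lower. EGR1 had 1536, 2472 and 505 counts in T47D-TR and 25, 21 and 24 in T47D (log2 fold change 5.99 ± 0.62 SE, edgeR adjusted p = 1.28e-06). EGR3 had a log2 fold change of 3.52 (edgeR adjusted p = 9.62e-07). SRF itself, the DNA-binding partner of the ELK factors, was the one that fell, with 56.0, 54.1 and 44.5 CPM in T47D-TR and 60.6, 60.7 and 62.4 CPM in T47D (log2 fold change -0.25 ± 0.10 SE, edgeR adjusted p = 0.0129; adjusted p = 0.0512 without T47D replicate 3). Replicate 3 was the lowest T47D-TR library for SRF, and without it the log2 fold change was -0.15 (edgeR adjusted p = 0.0121). The SRF cofactors MKL1 and MKL2 were not called, at log2 fold changes of 0.08 and 0.05 (edgeR adjusted p = 0.261 and 0.379).

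Proteases and other invasion genes with described PEA3, ETS1 or ETS2 sites rose in 12 of 14 tested genes, with 1 lower and 1 not called (median log2 fold change 1.07). For comparison, 32.5% of all tested genes were called higher and 30.5% lower. PLAU, the urokinase gene, rose to 63.6 ± 7.21 CPM in T47D-TR, against 20.2 ± 1.83 CPM in T47D (log2 fold change 1.66 ± 0.12 SE, edgeR adjusted p = 1.37e-08). ADAM19, a membrane protease gene, had a log2 fold change of 2.37 (edgeR adjusted p = 3.57e-08), and ICAM1, a cell adhesion gene, one of -0.28 (edgeR adjusted p = 0.00581), or -0.185 without T47D-TR replicate 3. Genes of factors that bind beside ETS proteins or act as their coactivators rose in 7 of 13, fell in 4 and were not called in 2 (median 0.14). The AP-1 genes FOS and JUNB led the rise, at log2 fold changes of 3.28 and 1.84 (edgeR adjusted p = 8.38e-06 and 9.29e-08), whereas JUND (-0.49) and CBFB (-0.92), the partner subunit of RUNX factors, fell (edgeR adjusted p = 2.40e-05 and 7.98e-08). FOS, FOSL1, JUNB and SRF stand in more than 1 of these lists. FOSL1, another AP-1 gene, was called higher (log2 fold change 0.71, edgeR adjusted p = 0.00549) with 123, 129 and 63.5 CPM in T47D-TR and 65.7, 63.5 and 64.7 CPM in T47D, so replicate 3 lay at the T47D level; without it the log2 fold change was 0.96. Without T47D-TR replicate 3, an alternative chosen after seeing the data, the genes called higher were 14 of 15 in the ERK output list, 11 of 14 in the immediate-early list, 12 of 15 among protease and invasion genes and 6 of 13 among co-binding factors.

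**Figure D4:**
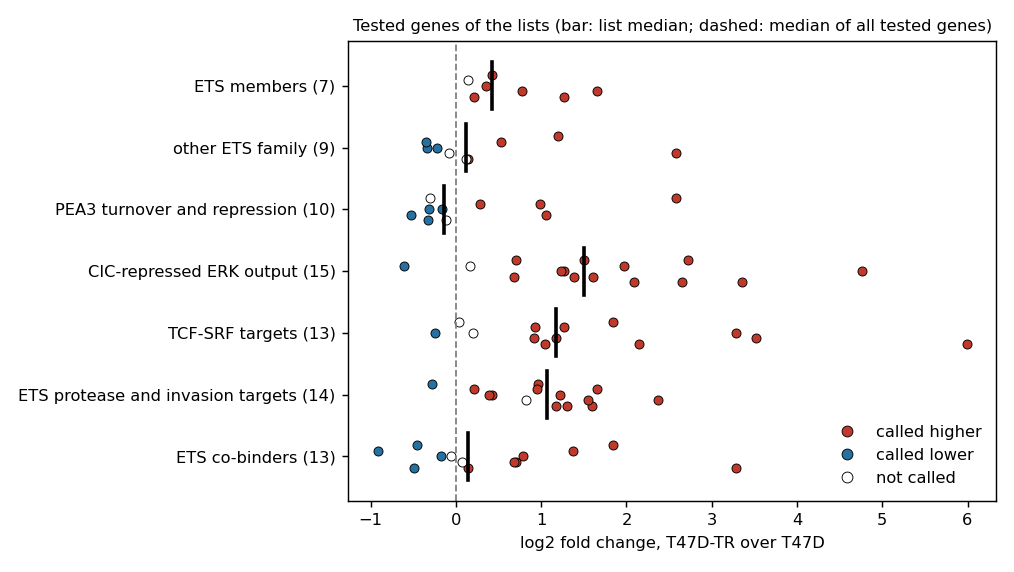
Log2 fold change, T47D-TR over T47D, of each tested gene of 7 lists, with the number tested in brackets; bars are list medians and the dashed line is the median of all tested genes (0.00). The medians of the ERK output (1.51), SRF target (1.17) and protease (1.07) lists lie above that of the 8 members' tested genes (0.42), and those of the other ETS family (0.12), PEA3 turnover (-0.14) and the co-binders (0.14) lie close to the line.

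The T47D-TR libraries lay closer together for the PEA3 genes than for the immediate-early genes named here. The coefficient of variation over the T47D-TR libraries was 4.93% for ETV5, 5.13% for ETV4, 3.44% for ELK1, 7.11% for ETS1, 8.02% for ETS2, 10.6% for ELK3 and 11.1% for ETV6, beside a median of 8.02% over all tested genes. It was 61.2% for EGR1, 50.1% for FOS, 22.1% for JUNB and 16.0% for EGR3 among the immediate-early genes, and 24.9% for SPRY4 and 17.1% for DUSP6. Replicate 3 was the lowest of the T47D-TR libraries for EGR1, FOS, JUNB and SPRY4, and also for ETS1, ETS2, ETV6 and ELK3, but it was the middle one for ETV4, ETV5, ELK1 and DUSP6, and the highest for EGR3. Relative to the T47D mean, it stood at 4.60 for EGR1 on the log2 scale, against 6.01 and 6.67 in T47D-TR replicates 1 and 2, while ETV5 stood at 1.65, against 1.59 and 1.73. These differences between genes were not tested, and the groups have 3 libraries each. Over the T47D libraries the coefficients were 1.38% to 4.55% for the tested members, beside a median of 5.55%.

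**Figure D5:**
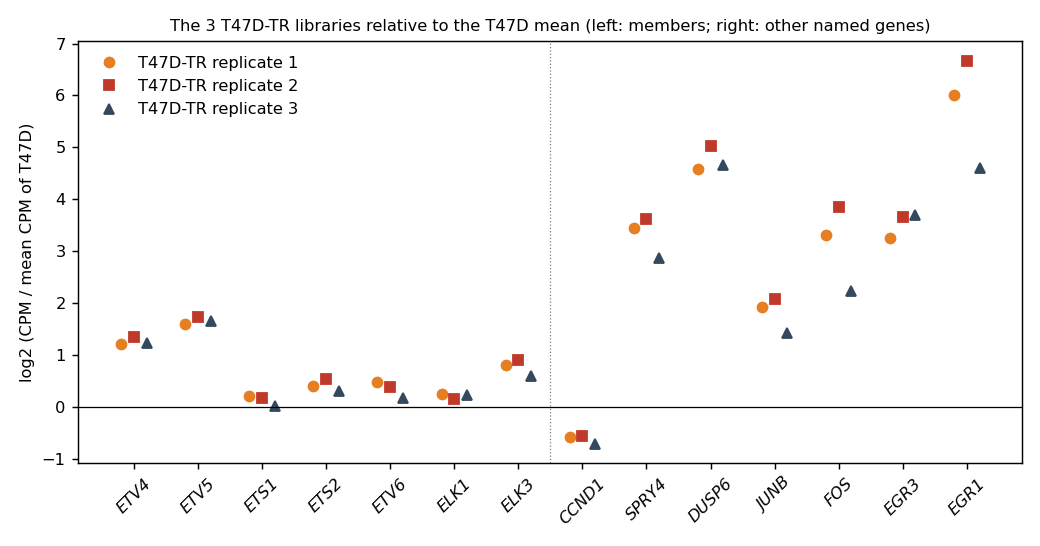
Log2 ratio of the CPM of each T47D-TR library to the mean CPM of T47D, for the 7 tested members (left of the dotted line) and 7 other named genes (right). The ETV4 and ETV5 points lie close together, while EGR1 spreads between 4.60 and 6.67, with replicate 3 (triangles) lowest.

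Across the 6 libraries ETV4 and ETV5 had a Pearson correlation of 0.999 in log2 CPM. The genes most like ETV4 were the cell cycle inhibitor gene CDKN2B, the mTOR inhibitor gene DDIT4 and the nuclear receptor gene PPARA, and those most like ETV5 were TLE6, DHTKD1 and DUSP6, all with a correlation of 1.00 after rounding. The 6 points form 2 groups and share their libraries and scaling, so any gene that differs strongly between the groups has a high value. A correlation above 0.95 was found for 16.9% of tested genes with ETV4 and for 16.7% with ETV5.

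Markers of cells in which ETS genes are known to be active were low or absent in part, but the 2 endothelial and blood markers tested rose. Of 12 endothelial and blood markers 6 were analysed, and 2 passed the filter and rose. PECAM1, an endothelial adhesion gene, had 453, 610 and 459 counts in T47D-TR and 13, 13 and 12 in T47D. Its log2 fold change was 5.33 ± 0.12 SE (edgeR adjusted p = 1.17e-10), at the 99.8th percentile of all tested genes. CD68, a macrophage marker, rose as well (log2 fold change 1.44, edgeR adjusted p = 8.57e-08). Of all tested genes, 32.5% were called higher and 30.5% lower. TEK, VWF and PTPRC averaged at most 0.162 CPM in either group. The summed level of the 6 was 80.0 to 102 CPM in T47D-TR and 22.7 to 26.3 CPM in T47D. Of 8 fibroblast markers 4 passed the filter, of which FBLN1 rose (1.48), LUM (-5.75) and PDGFRB (-0.67) fell and COL1A1 was not called. The summed level of the 8 was 268 to 310 CPM in T47D-TR and 131 to 137 CPM in T47D. FBLN1 alone had 269 ± 24.9 CPM in T47D-TR and 96.6 ± 2.69 CPM in T47D (SD, n = 3 each). The higher sum in T47D-TR is thus that of FBLN1 and not of the other fibroblast markers. The part of these markers in the changes of the ETS genes was not tested.

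Promoter sequence was taken from RefSeq on GRCh38.p14 for 5 of the 8 members, ETV1, ETV6, ETS2, ELK1 and ELK3. The source used had none for ETV4, ETV5 and ETS1, so their promoters were not searched for any site. Each annotated start had a window of its own, from 250 bases before to 50 after it, which gave 12 windows, 6 of them for ETV1, 2 each for ETS2 and ELK3 and 1 each for ETV6 and ELK1. Some windows of 1 gene overlap. Windows of ELK3, the member with the largest change among these, and of ETV1, the undetected one, are shown. Capitals mark the PEA3 site AGGAAG in ELK3 and the CIC site TGAATGGA in ETV1. The ELK3 window is chr12:96194125-96194424 on the plus strand, and that of ETV1 is chr7:13991376-13991675 on the minus strand.
ELK3: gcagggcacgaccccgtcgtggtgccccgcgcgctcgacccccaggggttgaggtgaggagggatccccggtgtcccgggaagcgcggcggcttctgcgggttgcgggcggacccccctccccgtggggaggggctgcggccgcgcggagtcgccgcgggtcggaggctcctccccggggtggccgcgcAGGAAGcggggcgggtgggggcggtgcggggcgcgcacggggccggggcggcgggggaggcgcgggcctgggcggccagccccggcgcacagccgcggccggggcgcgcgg
ETV1: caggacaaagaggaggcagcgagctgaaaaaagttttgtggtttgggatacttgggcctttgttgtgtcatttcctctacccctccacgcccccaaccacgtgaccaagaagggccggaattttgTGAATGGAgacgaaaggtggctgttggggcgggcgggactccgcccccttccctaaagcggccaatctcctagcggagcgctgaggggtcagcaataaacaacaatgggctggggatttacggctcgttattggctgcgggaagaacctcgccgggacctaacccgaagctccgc
Both strands of all windows were searched. TGAATGGA or TGAATGAA, the CIC sites, stood in 1 of 12 member windows, the ETV1 window above, where the match begins at -125 bases from the start, and in 2.63% of 35116 RefSeq windows. AGGAAG, which contains the ETS core GGAA, was found in 5 of 12 member windows, belonging to ETV1, ETS2 and ELK3, and in 33.6% of all windows. The ETV1 windows among the 5 overlap and hold the same match, at -205 bases from one start and -201 from the other, so it is counted again. The core GGAA alone was in all 12 and in 95.5% of windows. The longer ETS site CCGGAAGT (4.14% of windows) and the CArG box of SRF (1.29%) were in none of the 12. A match describes these letters only, and a missing one says nothing of sites outside these windows.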

How the data were processed

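RNA of 6 human cell culture libraries, 3 of T47D-TR and 3 of T47D, was measured by directional, poly(A)-selected sequencing, per the labels' protocols. The submitters' processing notes name HISAT2 2.1.0, GRCh38 and DESeq. No source used here gives the counting program, the annotation or how strand was treated. The authors deposited a table of whole-number counts, one column a library, under a name that says FPKM. Beside them the authors deposited a mean signal per group, its fold ratio and log2 fold change, and a p-value with its false discovery rate.

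Here the counts were scaled with TMM, filtered with filterByExpr (minimum count 10, minimum total 15) and tested over all genes with edgeR 4.0.16 (glmQLFit, glmQLFTest) in R 4.3.3. Calls are 2-sided and need an adjusted p (Benjamini-Hochberg) below 0.05. SEs are from the libraries' log2 CPM, prior count 2, which narrows them for genes with few counts. Alternatives were other scalings, filters and a replicate block, leaving out each library, limma 3.58.1 (voom, trend) and DESeq2 1.42.0. Exon lengths are from GENCODE release 29. The procedure was tested on simulated data with known changes. Libraries were grouped by title. No 2 libraries agreed within counting noise.

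The members, the lists and the rule for named genes were chosen with earlier results of these data known. Named are the members, the other analysed ETS and PEA3 turnover genes, up to 2 called genes at each end of a list, and the 3 genes most like ETV4 and ETV5. KRT8, KRT18, FOXA1, ESR1, FOSL1, COL1A1, COL1A2, COL3A1 and DCN are named beyond that rule, with their values known. So are MKL1, MKL2, DHX8, DGKG, TEK, VWF and PTPRC. No per-sample column was left unused.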

Additional observations from a re-analysis of the deposited data

How the results depend on the processing

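Of the members, ETV4, ETV5, ETV6, ETS2, ELK1 and ELK3 were called higher under all 14 alternatives, with log2 fold changes of 1.23 to 1.29 for ETV4, 1.62 to 1.69 for ETV5, 0.28 to 0.44 for ETV6, 0.36 to 0.48 for ETS2, 0.18 to 0.24 for ELK1 and 0.71 to 0.86 for ELK3. ETS1 was called at a mean CPM of at least 5 (0.15, edgeR adjusted p = 0.0342), a filter that tests fewer genes, and without T47D-TR replicate 3. Leaving out each library gave it 0.10 to 0.20, and its adjusted p ran from 0.000799 to 0.211 over the alternatives; the cause was not tested. Between 6 and 7 members and 8010 to 10665 genes were called. The difference in the PEA3 share of the ETS family was 12.5 to 13.2 points without single libraries and 11.6 points without length scaling. Of 53 other tested genes that the naming rule chose or the text names, 46 kept their side of the threshold. Another 5 (ELF4, ATXN1L, GATA3, SRF, DGKG) lost a call in at least 1 alternative, 2 (CIC, DET1) gained one, and 0 changed direction. KRT18 and FOXA1 were not followed over the alternatives. EHF, DET1, EGR3, GATA3, CDH1, PDGFRB and TLE6 had no value under the filter on mean CPM. Replicate numbers did not pair the libraries: deviations from the group means correlated by -0.005, -0.021 and -0.014 across same-numbered libraries, and 0 of 6 libraries correlated best with their own number. With a replicate block 9954 genes and the same number of members, 6, were called; ELF4 lost its call. For ETV1, at 0 to 2 counts, depth is the limit.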
